A study of Mus musculus with 15 samples.

Results

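Liver carries the RNA of the blood inside it, and 6 genes of red blood cells were followed across the livers of the study. They were Hba-a1 and Hba-a2 (the adult alpha-globin copies), Hbb-b1 and Hbb-b2 (adult beta-globins), Alas2 (the erythroid enzyme that starts heme synthesis) and Slc4a1 (band 3, the anion exchanger of the red cell membrane). The members were chosen by symbol as every non-control probe that the array design names for these genes, which gave 6 probes of 6 genes, out of 29522 probes of 22032 gene symbols. Each gene has a lone probe and a lone spot per array.

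All mice were male CD1, an outbred strain, for which the labels give an age of 10 weeks, while the study's methods describe DEN given in infancy and livers taken from older adults. Group C (3 mice, 4 arrays) was given saline and a plasmid without insert. Group T (4 mice, 5 arrays) was given diethylnitrosamine (DEN), a carcinogen that induces hepatocellular carcinoma, and the same plasmid without insert. Group G (6 mice, 6 arrays) received DEN and a plasmid with HA-tagged Gas1 (growth arrest specific 1) under the CAG promoter. All groups therefore had the same hydrodynamic gene delivery, a rapid tail vein injection of 50 µg of plasmid in a large volume. The study describes this delivery as repeated weekly in adult mice until shortly before the livers were taken. It transfects only some liver cells, mostly near vessels. Total liver RNA was measured, so that a lower share of red cells in the tissue and less RNA per cell cannot be told apart, and whether the livers were rinsed of blood before RNA extraction is not given in the sources used here.

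Red blood cells lose their nucleus during maturation but reticulocytes still carry abundant globin mRNA. Hemoglobin joins alpha and beta chains around heme, whose synthesis begins with ALAS2 in erythroid cells and with ALAS1 in hepatocytes. The alpha genes of the mouse are a duplicated pair, and the beta genes exist in several haplotypes: inbred strains commonly carry either the Hbb-bs and Hbb-bt genes or the Hbb-b1 and Hbb-b2 genes. The fetal liver makes red cells, whereas the adult mouse makes them in marrow and spleen.

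Array names need care here, because the probes do not all separate the gene copies. The Hba-a1 probe and the Hba-a2 probe are each listed against both alpha-globin transcripts, and the transcript behind the Hbb-b1 probe is now named Hbb-bt in RefSeq. The Hbb-b2 probe has no position on mm9, and its transcript is placed by RefSeq under the name Hbb-b2. A further probe, named Beta-s in the array design, matches RefSeq Hbb-bs and is used below beside the members. The probe sequences of 2 members, both within coding sequence, are shown whole because the beta-globin results turn on the second:
Hba-a1 probe (mm9, chr11:32183955-32184014, plus strand): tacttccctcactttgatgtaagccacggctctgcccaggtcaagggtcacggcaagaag
Hbb-b2 probe (no mm9 position): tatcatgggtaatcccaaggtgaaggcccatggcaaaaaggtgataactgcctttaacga
The Hba-a2 probe (mm9, chr11:32197245-32197304, plus strand) lies at the end of the transcript, and its last 30 bases hold the polyadenylation signal letters AATAAA, here in capitals:
Hba-a2 probe, last 30 bases: gtctttgAATAAAgcctgagtaggaagaag
The Hbb-b1 probe lies at chr7:110961105-110961164 on the minus strand, the Alas2 probe at chrX:147004993-147005052 on the plus strand and the Slc4a1 probe at chr11:102210256-102210315 on the minus strand, all on mm9.

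The 200 bases before the globin starts are shown from RefSeq (GRCm38.p6), with Alas2 for comparison. Of the members, 3 had a promoter under their own symbol (Hba-a1, Hba-a2 and Alas2), and the Hbb-b1 probe was matched as Hbb-bt. Capitals mark 4 motifs searched on both strands: GATAA (the core that GATA factors bind), CACCC (bound by Krüppel-like factors), CCAAT and TATAA.
Hba-a1 (chr11:32283472-32283671, plus strand): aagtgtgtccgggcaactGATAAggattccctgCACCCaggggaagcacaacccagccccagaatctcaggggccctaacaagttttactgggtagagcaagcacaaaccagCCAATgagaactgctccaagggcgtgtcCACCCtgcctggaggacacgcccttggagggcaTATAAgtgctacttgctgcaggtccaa
Hbb-bt (chr7:103813924-103814123, minus strand): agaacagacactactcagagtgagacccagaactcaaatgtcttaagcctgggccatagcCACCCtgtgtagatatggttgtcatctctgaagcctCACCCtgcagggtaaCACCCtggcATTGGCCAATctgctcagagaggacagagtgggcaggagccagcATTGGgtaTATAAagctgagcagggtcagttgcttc
Hbb-bs (chr7:103827929-103828128, minus strand): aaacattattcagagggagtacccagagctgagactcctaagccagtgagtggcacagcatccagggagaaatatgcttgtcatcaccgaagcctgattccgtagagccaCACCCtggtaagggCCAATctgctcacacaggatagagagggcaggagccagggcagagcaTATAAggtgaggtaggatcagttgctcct
Alas2 (chrX:150547217-150547416, plus strand): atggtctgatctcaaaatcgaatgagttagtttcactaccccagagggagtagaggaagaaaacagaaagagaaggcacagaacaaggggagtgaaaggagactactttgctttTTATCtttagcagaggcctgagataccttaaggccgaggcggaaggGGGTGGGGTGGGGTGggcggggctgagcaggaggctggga
The Hba-a1 and Hba-a2 promoters are identical over the 297 bases that overlap, whereas Hbb-bt and Hbb-bs share 56.2% of 299 aligned positions. Hba-a1 holds all 4 motifs, which 0.481% of the 32851 promoters do. Both beta-globin promoters hold CACCC as well as CCAAT and also TATAA, but no GATAA in this window. In the Alas2 window GATAA and CACCC are found on the reverse strand only, and CCAAT and TATAA are not found. Singly, GATAA is present in 18.1% of all promoters, CACCC in 45.5%, CCAAT in 29.3% and TATAA in 18.5%. The part of these motifs in the variation between livers was not tested.

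The arrays differed in brightness before any comparison. Between 15707 and 29765 spots per array were well above background, and the 3 lowest arrays were G2 with 18041, C1 with 18354 and C2 with 15707. The Control array pair C3 and C4 carried the same RNA, and so did T4 and T5, so that each pair was averaged as 1 mouse, named below C mouse 3 and T mouse 4. The Gas1 probe read 6.53 ± 0.20 (SD, n = 3) in C, 6.53 ± 0.09 (n = 4) in T and 6.61 ± 0.11 (n = 6) in G on the log2 scale. Whether that probe lies in the part of the gene that the plasmid carries was not determined, so that it is no check of the labels. Hepatocyte RNA was present throughout, as Alb, Apoa1 and Ttr were well above background on all 15 arrays.

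All values below are log2 signals after background correction and quantile normalization, in which 1 unit is a doubling, and levels of different probes are not set against each other. The 4 globin probes and the Alas2 probe were well above background on all 15 arrays, and Slc4a1 on 8 of them. In raw intensity the globins covered a wide range: Hba-a1 lay between 1122 and 22934, Hba-a2 between 7946 and 135850, Hbb-b1 between 333 and 9080, and Hbb-b2 between 63.4 and 4208. Slc4a1 lay between 41.3 and 70.6, close to the background.

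The first comparison is that of T with C, the effect of DEN in mice that all had the empty plasmid. The globins read higher in every T mouse than in any C mouse, by 2.30 to 4.80 times on average, but none of the 6 members passed an adjusted p of 0.05 over all genes (limma, Benjamini-Hochberg), where 2.37% of all 22032 genes did. The mice of the groups did not overlap for 5 of the 6 members, all but Alas2. This held for 19.1% of all genes. At an unadjusted p under 0.05, the 5 were also past the threshold, against 20.2% of all genes.

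**Figure D1:**
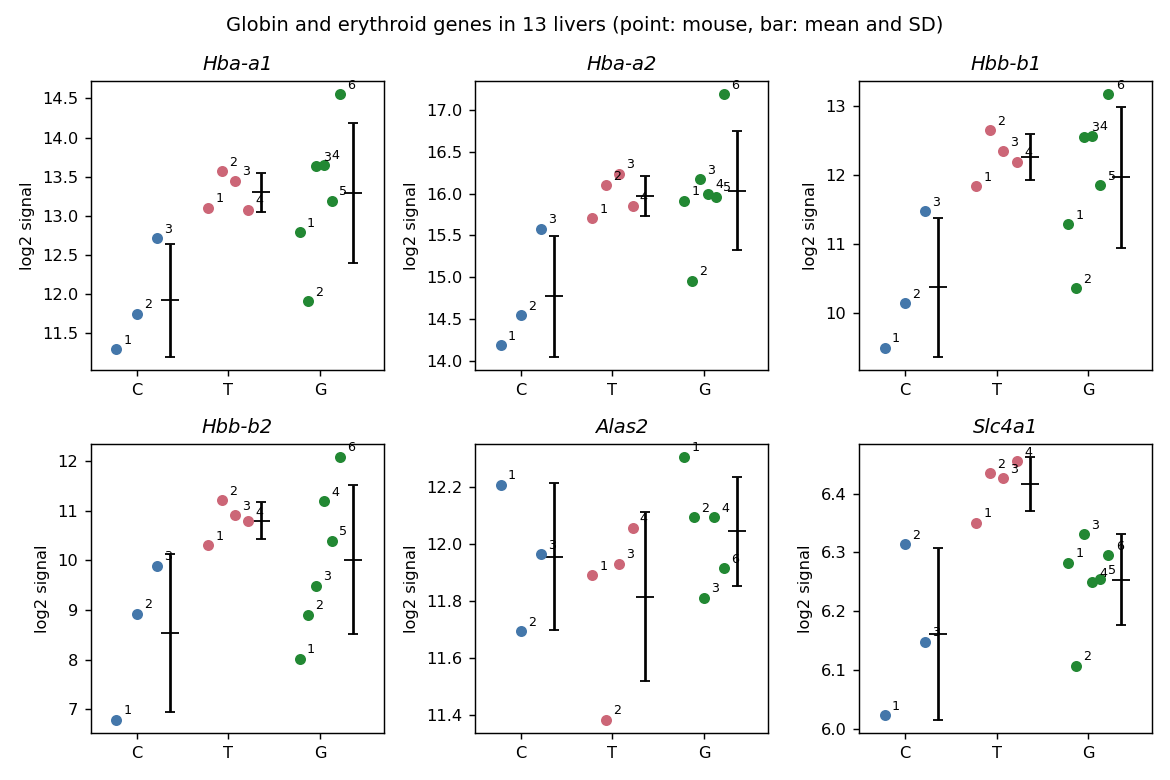
Log2 signal of each of the 6 genes in the 13 livers, by group (C, T and G on the horizontal axis, mouse number beside each point), with the mean and SD as bars. C mouse 1 is the lowest and G mouse 6 the highest in all 4 globin panels, and C mouse 2 and G mouse 2 come next to C mouse 1 except for Hbb-b2, where G mouse 1 lies between, whereas the Alas2 panel does not follow this order.

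The Hba-a1 probe read 11.30, 11.75 and 12.71 in the C mice. It read 13.10, 13.57, 13.45 and 13.08 in the T mice. The T mice lay within 0.49 of each other and all above the highest C mouse. The difference was 1.38 (standard error 0.49, adjusted p = 0.146, limma), or 2.60-fold with a 95% interval of 1.24 to 5.45.

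The Hba-a2 probe gave 14.19, 14.54 and 15.58 in C, with 15.71, 16.10, 16.24 and 15.85 in T. The lowest T mouse was only just above C mouse 3. The difference was 1.20 (standard error 0.42, adjusted p = 0.135, limma), or 2.30-fold with an interval of 1.23 to 4.30. As the listed transcripts of both alpha probes are the same, their agreement is not that of separate genes.

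The Hbb-b1 probe read 9.49, 10.14 and 11.47 in C, and 11.84, 12.64, 12.34 and 12.19 in T. Again C mouse 1 was the lowest and C mouse 3 the highest of its group. The difference of 1.89 (standard error 0.59, adjusted p = 0.104, limma) was 3.70-fold, with an interval of 1.52 to 9.01.

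The Hbb-b2 probe read 6.79, 8.93 and 9.89 in C, which spans 8.57-fold among 3 mice. The T mice gave 10.30, 11.21, 10.91 and 10.78. The difference of 2.26 (standard error 0.88, adjusted p = 0.175, limma) was 4.80-fold, with an interval of 1.28 to 17.97, and it was the widest of the members. Without C mouse 1 it was 1.39.

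Alas2 gave 12.21, 11.70 and 11.97 in C, and 11.89, 11.38, 11.93 and 12.06 in T. The groups overlapped, and the T mean was 0.14 lower (standard error 0.17, adjusted p = 0.702, limma), with an interval of -0.51 to 0.23 on the log2 scale, but 0.85 higher when the arrays were scaled to equal medians instead of quantiles. That scaling moved the median of all genes by 0.12. With it the globin differences were larger too, and Hba-a1 (2.39), Hba-a2 (2.37) and Hbb-b1 (2.84) had adjusted p-values of 0.0446, 0.0370 and 0.0417 (limma).

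Slc4a1 was not well above background on any C array, and was so on 4 of 5 T arrays. It read 6.02, 6.31 and 6.15 in C, and 6.35, 6.43, 6.43 and 6.45 in T. The C arrays read above the weakest detected signal, so that the measured fold is given. T was 1.19-fold higher, with an interval of 1.07 to 1.33 (adjusted p = 0.0711, limma). That size depended on the processing. The scanner's processed signal, scaled to the 75th percentile, gave a log2 difference of 0.87 (standard error 0.47, adjusted p = 0.194, limma), where the main setting gave 0.25. With the 15 arrays taken as separate samples the adjusted p of Slc4a1 was 0.0177 (limma).

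The size of the globin differences rested on C mice 1 and 2, which were also 2 of the 3 dimmest arrays. When those and array G2 were left out, an alternative chosen after seeing the data, Hba-a1 differed by 0.59, Hba-a2 by 0.39, Hbb-b1 by 0.78 and Hbb-b2 by 0.91, with adjusted p-values from 0.757 to 0.898 (limma), and C was then a lone mouse that is assumed to vary like the other groups. Within slide 1 the differences were 1.10, 0.92, 1.68 and 1.56 in the same order, and within slide 2 they were 1.19, 1.03, 1.57 and 2.36.

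**Figure D2:**
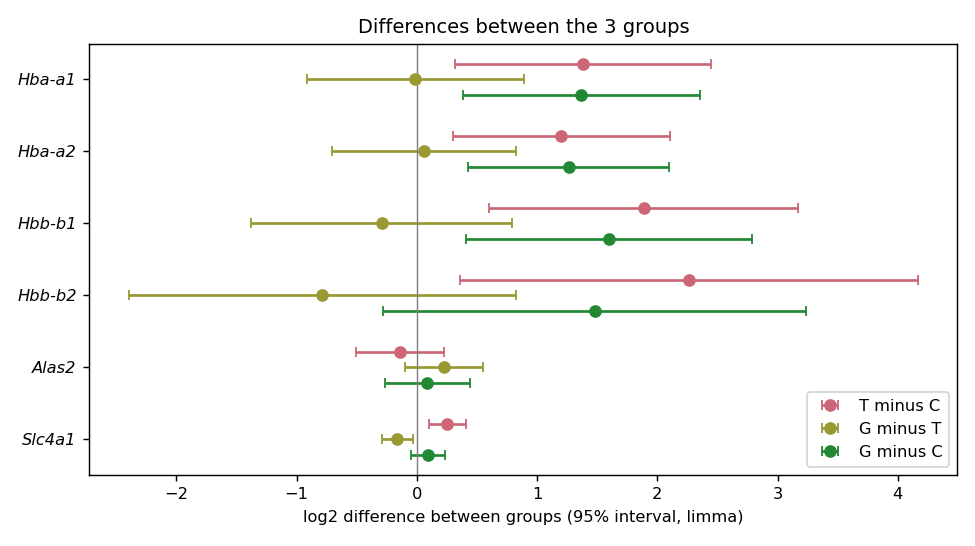
Differences of group means on the log2 scale (horizontal axis) for the 6 genes, with 95% intervals from limma, for T minus C, G minus T and G minus C. The T minus C intervals of the 4 globins lie above 0 with Hba-a1 at 1.38 and Hbb-b2 at 2.26, while all 4 G minus T intervals include 0.

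The comparison of G with T asks what the Gas1 plasmid changed in DEN-treated mice. None of the 6 members passed the adjusted threshold, where 0.132% of all genes did. The G mice were spread far wider than the T mice: Hba-a1 had an SD of 0.89 in G and 0.25 in T, and Hbb-b2 had 1.50 and 0.38. The means of the alpha-globins were close, and their intervals still allow changes to either side.

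Hba-a1 read from 11.91 to 14.55 in G with a median of 13.42, a 6.24-fold range that covers all T mice. The difference from T was -0.01 (standard error 0.42, adjusted p = 0.995, limma), or 0.992-fold with an interval of 0.531 to 1.85. It was positive with all 15 arrays as separate samples (0.03).

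Hba-a2 read from 14.96 to 17.19 in G (median 15.98). The difference was 0.06 (standard error 0.35, adjusted p = 0.971, limma), with a fold interval of 0.615 to 1.77, and it was negative with median scaling (-0.16), with the scanner's processed signal (-0.20) and with the authors' table (-0.0088).

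Hbb-b1 read from 10.35 to 13.17 in G (median 12.20), and differed by -0.29 (standard error 0.50, adjusted p = 0.885, limma), with a fold interval of 0.385 to 1.73. Hbb-b2 read from 8.02 to 12.08 (median 9.94), a 16.7-fold range among 6 mice. Its difference of -0.79 (standard error 0.74, adjusted p = 0.756, limma) had a fold interval of 0.190 to 1.77, and it was -0.39 without G mouse 1 and -1.20 without G mouse 6.

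Alas2 read from 11.81 to 12.30 in the 5 G mice with a value, as the spot of G mouse 5 was flagged as an outlier. The difference from T was 0.23 (standard error 0.15, adjusted p = 0.619, limma), with an interval of -0.10 to 0.55. Slc4a1 read 6.28, 6.11, 6.33, 6.25, 6.25 and 6.29 in G, all below the lowest T mouse, and 4 of 6 arrays were well above background. The difference was -0.16 (standard error 0.06, adjusted p = 0.340, limma), and groups without overlap occurred in 3.1% of all genes.

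For Hba-a1 and Hbb-b1 the G mice split by slide. For Hba-a2 the G mice of the slides did not overlap either, but the gap was narrow. That gap was smaller than the Hba-a2 difference between the arrays of C mouse 3 (0.083) or of T mouse 4 (0.047). The 3 G mice on slide 1 read 13.63 to 14.55 for Hba-a1 and 12.55 to 13.17 for Hbb-b1, and the 3 on slide 2 read 11.91 to 13.20 and 10.35 to 11.85. Within slide 1 G lay above T for Hba-a1 (0.66), Hba-a2 (0.49) and Hbb-b1 (0.35), and within slide 2 below it (-0.60, -0.33 and -0.96). Hbb-b2 lay below T on both slides (-0.11 and -1.53), and its G mice on slide 1 (9.49 to 12.08) overlapped with those on slide 2 (8.02 to 10.40). The difference between the slides was not tested. The RNAs of C mouse 3 and of T mouse 4 were on both slides, and their arrays differed by 0.0013 to 0.27 over the 6 genes. No RNA of group G was on both slides.

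In G against C, the third comparison, the 4 globin means were higher in G. Groups T and G are each set against the same 3 C mice here, so that the comparisons are not independent. Hba-a1 was 2.58-fold higher (interval 1.30 to 5.12), Hba-a2 2.40-fold (1.34 to 4.28), Hbb-b1 3.02-fold (1.33 to 6.89) and Hbb-b2 2.79-fold (0.821 to 9.45). On the log2 scale the Hbb-b2 difference of 1.48 was 0.61 without C mouse 1. Within slide 1 G minus C was 1.76, 1.41, 2.02 and 1.45 for Hba-a1, Hba-a2, Hbb-b1 and Hbb-b2, and within slide 2 it was 0.58, 0.71, 0.61 and 0.82. The adjusted p-values were 0.212, 0.180, 0.228 and 0.472 (limma), and no member passed the threshold, where 0.427% of all genes did. Unlike T, the G mice overlapped with C for all globins. G mouse 2 read within the C range for all 4, G mouse 1 for both beta-globins, and G mouse 3 for Hbb-b2. Groups without overlap made up 5.95% of all genes in this comparison. Alas2 differed by 0.09 (interval -0.26 to 0.44) and by -0.04 without C mouse 2. Slc4a1 differed by 0.09, a measured 1.07-fold with an interval of 0.966 to 1.17 (adjusted p = 0.594, limma).

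The globins varied together from mouse to mouse. Over 13 mice Hba-a1 correlated with Hbb-b1 with r = 0.98 (Spearman's rho 0.96, permutation p = 1e-05 for both, the smallest that 100000 resamples can give, adjusted 5e-05 and 0.00015 over 15 pairs), and with r = 0.99 without C mouse 1 and G mouse 6, the farthest from the median. The lowest of the 6 globin pairs, Hba-a2 with Hbb-b2, had r = 0.80 and rho 0.74 (permutation p = 0.00122 and 0.00515, adjusted 0.00305 and 0.0129). Without the 2 mice farthest from the median, C mice 1 and 2, this pair had r = 0.64. On deviations from the group means the 6 globin pairs had r from 0.75 to 0.98 (adjusted permutation p from 0.0001 to 0.0092). Over the arrays of each slide, with the group differences left in, the log2 signals had r from 0.79 to 0.99. The globin range over all livers was 9.54-fold for Hba-a1, 8.01-fold for Hba-a2, 12.8-fold for Hbb-b1 and 39.1-fold for Hbb-b2, in each case between C mouse 1 and G mouse 6.

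Alas2 did not share that pattern. With the 4 globins it had r from -0.46 to -0.19 (rho from -0.47 to -0.30, adjusted permutation p from 0.161 to 0.542 for r and from 0.174 to 0.347 for rho), and its whole range over 12 mice was 1.89-fold. Within slide 1 these correlations were 0.13 to 0.17 and within slide 2 they were -0.73 to -0.35. Slc4a1 had r from 0.57 to 0.67 with the globins (adjusted permutation p from 0.0263 to 0.0608) and rho from 0.40 to 0.51 (0.137 to 0.206). Without the 2 farthest mice r was 0.44 to 0.63, and it was 0.10 to 0.26 within slide 1 and 0.81 to 0.94 within slide 2, so that the relation did not hold within both slides.

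**Figure D3:**
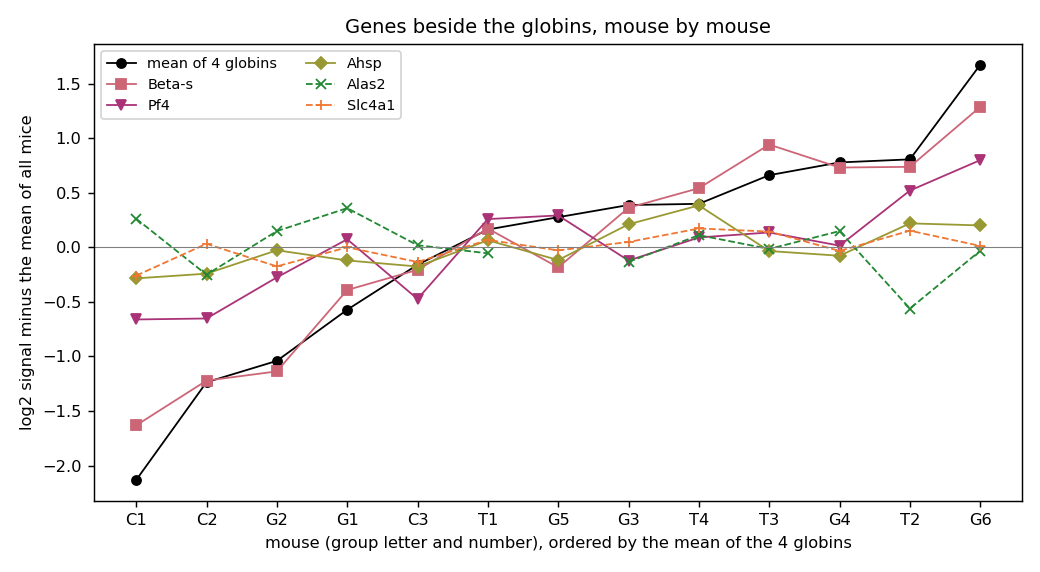
Log2 signal minus the mean of all mice (vertical axis) in the 13 mice, ordered by the mean of the 4 globins. Beta-s and, over a smaller range, Pf4 follow the globins from C mouse 1 to G mouse 6, and Alas2 does not rise with them.

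Among 10530 genes with a value in every mouse and a signal well above background on at least 8 arrays, Beta-s was the most like the members, with r = 0.97 to their mean over 13 mice. It read 7.28, 7.69 and 8.71 in C, 9.09, 9.65, 9.86 and 9.46 in T, and from 7.78 to 10.20 in G. T was 1.62 higher than C (standard error 0.49, adjusted p = 0.0932, limma). Also among the first 10 were Plekho2 (0.89), Tpm4 (0.88), Zdhhc22 (0.88), Phldb1 (0.87), Clec2e (0.86), 9930111J21Rik1 (0.86), Zcrb1 (0.86) and Ifngr2 (0.85). On deviations from the group means Beta-s came first again (0.97), followed by Atp5o (0.93), Tmem65 (0.92), Anxa8 (0.91), Fam25c (0.90), Gm4953 (0.88), Slc25a3 (0.86), Spag9 (0.86), Ecscr (0.86) and Zdhhc22 (0.85). These correlations ranked the genes and carry no test.

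**Figure D4:**
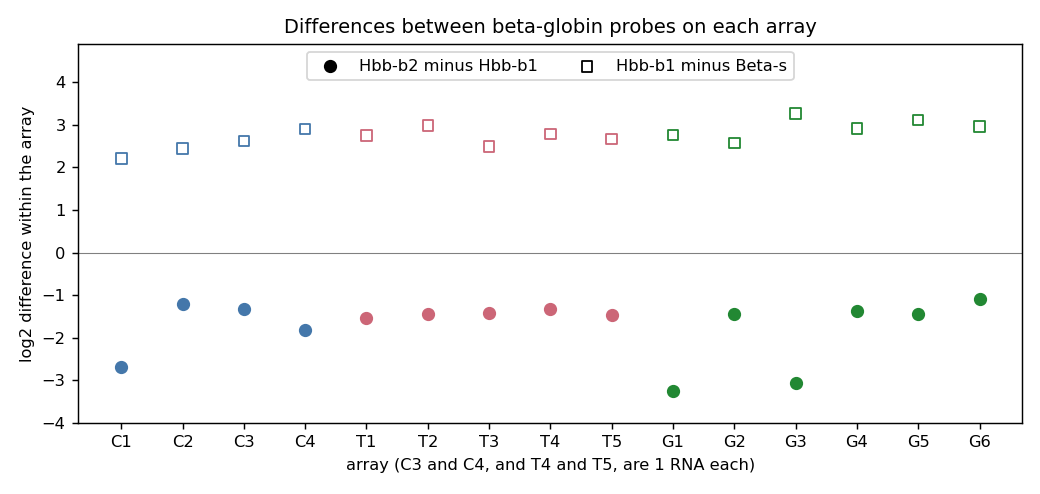
Difference of log2 signals between beta-globin probes within each of the 15 arrays (vertical axis), filled circles for Hbb-b2 minus Hbb-b1 and open squares for Hbb-b1 minus Beta-s, coloured by group. The circles of C1, G1 and G3 lie between -3.26 and -2.70, apart from all others.

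The beta-globin probes did not keep a fixed distance from each other. Within an array, Hbb-b2 minus Hbb-b1 was -2.70 in C mouse 1, -3.26 in G mouse 1 and -3.06 in G mouse 3. In the other arrays it lay between -1.83 (array C4 of C mouse 3) and -1.08. The same 3 mice stood apart in Hbb-b2 minus Beta-s, which was -0.50 to 0.21 in them and 1.05 to 1.88 in the others. Hbb-b1 minus Beta-s showed no such gap, with 2.21 to 3.27 in the 3 mice and 2.44 to 3.11 in the others. These mice were of 2 groups, on both slides, and included livers with low globin signal (C mouse 1) and with high (G mouse 3). The haplotype of each outbred mouse was not determined and its part in the difference was not tested. The alpha probes kept closer, as Hba-a2 minus Hba-a1 ranged over 0.78.

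The globins also went with the brightness of the arrays. Hba-a1 correlated with the number of spots well above background with r = 0.71 (rho 0.66, permutation p = 0.00582 and 0.0161, adjusted 0.0240 and 0.0968 over the 6 members), and with r = 0.79 without G mice 4 and 5, the farthest from the median. Hba-a2 had r = 0.67, Hbb-b1 0.68 and Hbb-b2 0.57 (adjusted permutation p = 0.0240, 0.0240 and 0.0608). Their rho was 0.51 to 0.58, with an adjusted permutation p of 0.122 for each, so that no globin passed 0.05 by rank. Alas2 had r = 0.14 and Slc4a1 0.05. Within the slides, Hba-a1 had r = 0.58 and 0.63. The arrays C3 and C4 of 1 RNA, with 27681 and 21287 such spots, read 12.63 and 12.80 for Hba-a1 and 10.01 and 9.78 for Hbb-b2. The part of brightness in the group differences was not tested.

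**Figure D5:**
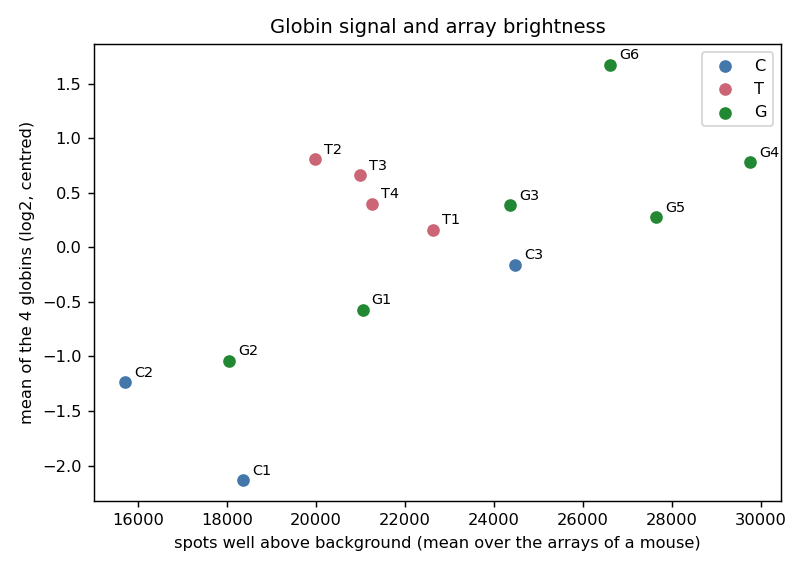
Mean of the 4 globins, centred on the log2 scale (vertical axis), against the number of spots well above background (horizontal axis), with a point per mouse. C mice 1 and 2 and G mouse 2 are low on both axes, and the T mice lie close together between 19970 and 22638 spots.

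Genes that mark red cell precursors were detected in part. Of all genes, 28.8% were not well above background on any array and 38.5% were on all 15. Of 11 erythroid transcription factors, 3 (27.3%), Gata1, Myb and Sox6, were on no array, and 3 were on all 15. Of 17 late erythroid genes, 3 (17.6%) were on no array and 8 (47.1%) on all 15. Of 18 red cell membrane genes, 9 (50%) were not detected on any array and 4 (22.2%) were on all 15. Among the 9 were Rhag and Kel (blood group proteins) and Epb4.2 (protein 4.2), and Spna1 (alpha spectrin) was above background on 1. The embryonic globins Hba-x and Hbb-bh1 were detected on none and Hbb-y on 1. Klf1, an erythroid activator of the beta-globins, was above background on 11 arrays and read 6.27 in C, 6.36 in T and 6.76 in G (G against C 0.49, adjusted p = 0.0535, limma).

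Ahsp, the chaperone of free alpha-globin, was not well above background on any C array and was so on 3 of 5 T arrays and 3 of 6 G arrays. It read 5.91, 5.96 and 6.02 in C and 6.26, 6.42, 6.16 and 6.58 in T. T was at least 1.23-fold higher (adjusted p = 0.0711, limma). Of 6 genes in the list of other globins and their chaperone, none passed in any comparison.

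In the late erythroid list, 2 of 17 genes rose and 1 fell in T against C, where 1.18% of all genes rose and 1.2% fell, and the list's median difference was 0.07 beside 0.0053 over all genes. Tfrc, the transferrin receptor, rose by 0.21 ± 0.05 (SE, adjusted p = 0.0407 by limma), and Tspo2, an erythroid relative of the translocator protein, by 0.26 ± 0.06 (SE, adjusted p = 0.0413 by limma), both near background in C, where 1 of 4 arrays detected each. Ctse, a cathepsin that red cells carry and that stomach makes in quantity, read 8.25 ± 0.46 (n = 3) in C, 5.94 ± 0.05 (n = 4) in T and 7.61 ± 0.26 (n = 6) in G. It fell at least 4.97-fold in T (adjusted p = 0.00026, limma), opposite to the globins, and was at least 3.17-fold higher in G than in T (adjusted p = 0.0011, limma). Hemgn, a nuclear protein of blood precursors, read 14.87 in C, 14.60 in T and 14.53 in G and did not follow the globins (r = -0.29).

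The 8 heme synthesis genes were all detected, and 1 of them passed in T against C, where 2.37% of all genes did. Cpox, coproporphyrinogen oxidase, fell by 0.55 in T against C (standard error 0.10, adjusted p = 0.0212, limma). Alas1, the housekeeping first enzyme, read 8.31 ± 0.36 in C, 9.02 ± 0.75 in T and 9.10 ± 0.64 in G, and its difference for T of 0.72 had an adjusted p of 0.393 (limma). Alad, which makes porphobilinogen, differed by -0.70 (adjusted p = 0.185, limma). The list's median was -0.06. In the membrane list no gene passed in T against C, and 1 of 18 did in G against C, where 0.427% of all genes did. It was Gypc (glycophorin C), which other tissues also make, at 0.79 lower (standard error 0.14, adjusted p = 0.0402, limma). Gypc was also 0.56 lower in T against C (adjusted p = 0.0691, limma) and differed by -0.23 in G against T (0.560). The list's median in G against C was -0.02, beside -0.0036 over all genes. Epb4.1 (protein 4.1) differed by 0.31 in T against C (adjusted p = 0.182, limma) and Epb4.9 (dematin) by -0.22 (0.737).

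Blood cells other than red cells were read from lists as well. Of 12 platelet genes, 11 were higher in T than in C (11410 of all 22032 genes were) and 2 passed, with a median difference of 0.16, where 1.18% of all genes passed in that direction. Only 4 of the 12 were well above background on all arrays of a group. Pf4 (platelet factor 4) rose by 0.85 ± 0.20 (SE, adjusted p = 0.0487 by limma), from 6.26, 6.27 and 6.45 in C to 7.18, 7.44, 7.06 and 7.01 in T. For T mouse 4 the Pf4 value is that of array T4 alone. Pf4 correlated with the globin mean with r = 0.85 over the 13 mice, and with r = 0.70 on deviations from the group means. Ppbp (pro-platelet basic protein) was not detected on any C array and was detected on 3 of 5 T arrays. It read near background, with means of 5.99 in C and 6.48 in T, and rose at least 1.28-fold (adjusted p = 0.0258, limma). In G against C all 12 platelet genes were higher, as were 10691 of the 22032, and none passed. Of 11 neutrophil genes none passed in T against C, and 6 were higher and 5 lower (median 0.0014). Only 2 of the 11 were well above background on all arrays of a group, and their median difference was 0.67. S100a9 differed by 1.36 (standard error 0.46, adjusted p = 0.130, limma). None of 9 lymphocyte genes passed, with a median of 0.05 for T against C, and Cd3e differed by 0.33 (adjusted p = 0.424, limma). Only 2 of the 9 were well above background on all arrays of a group, with a median of 0.18.

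Signals around red cell production and disposal gave few calls. Of 11 genes that signal to erythropoiesis or iron, none passed in any comparison. Hamp2, a hepcidin gene of the iron hormone family, read 9.05, 10.40 and 9.27 in C and from 7.30 to 7.81 in T, a difference of -1.96 (standard error 0.53, adjusted p = 0.0681, limma), while Hamp itself differed by -0.21 (0.731). Of 15 genes of heme and hemoglobin clearance none passed. In T against C 9 were higher and 6 lower, with a median difference of 0.09 beside 0.0053 over all genes. The largest difference was that of Hp (haptoglobin, which binds free hemoglobin). It read 16.45 ± 0.23 in C, 17.29 ± 0.70 in T and 16.31 ± 0.25 in G (T against C 0.84, adjusted p = 0.144, limma). Hpx (hemopexin) differed by 0.55 (adjusted p = 0.349, limma). None of the 8 sinusoidal endothelium genes passed in T against C, where the median was 0.11 and Eng differed by -0.30 (adjusted p = 0.251, limma). Of 8 hepatocyte genes 1 passed in T against C, where 2.37% of all genes did. Ttr (transthyretin) fell by 1.00 in T (standard error 0.12, adjusted p = 0.0042, limma). The part of a changed cell makeup of the tissue in the globin differences was not tested.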

How the data were processed

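Liver RNA (100 ng, Cy3) of 13 mice was hybridized to 15 single-colour Agilent arrays on 2 slides. The authors deposited the scanner output of Agilent Feature Extraction 10.7.3.1, with the mean intensity and background intensity of each spot, and a table of log2 values for the series, made with normexp and quantile normalization. From the deposited intensity, normexp (offset 50), log2 and quantile normalization over 59305 non-control spots were applied with limma 3.58.1 in R 4.3.3. Outlier spots were set to missing, probes of a symbol were averaged after centring, and arrays with the same RNA code in their deposited names were averaged. Each code was taken as a mouse, which the labels do not state, so that p-values measure the spread between these RNA samples. The deposited log2 values differed from these by a median of 0.0026. Groups were compared with lmFit and eBayes on 22032 symbols, with Benjamini-Hochberg adjustment. Correlations used permutation (100000 resamples). The members and lists were chosen with earlier results of these data known. Named genes were those of each list past the threshold (up to 5), the 3 with the largest difference in T against C among detected genes, and the 10 most like the members. Some genes these rules name are not reported here. Klf1, Spna1, Gas1, Ahsp and Hemgn's r were chosen after values were seen. Nothing in the labels says how mice were paired, and arrays have no read depth, so that the count of mice sets the precision. Probes of a group never well above background give "at least" folds, computed against the weakest detected signal. Slc4a1 is the exception, as its C arrays read above that signal and its measured fold is given. Alternatives covered scaling, background, filters, slides, pooling of arrays and leaving out mice.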

Additional observations from a re-analysis of the deposited data

Results flagged for a closer look

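Slc4a1 read 6.11 on the log2 scale in G mouse 2, while the other 5 G mice lay between 6.25 and 6.33. The gap to the nearest of them was 0.635 of the group's whole range, which is more than Dixon's limit for 6 samples. The spot was not well above background on that array. In all, 40 groups of values of the members and of the genes beside them were looked at in T and G, 1 was singled out, and chance does so in about 1 of 20 groups.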

How the results depend on the processing

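Among the 27 alternatives run per result, the T against C differences of the 4 globins and of Slc4a1 kept their sign in all. They passed the adjusted threshold only under median scaling (Hba-a1 2.39, Hba-a2 2.37, Hbb-b1 2.84, Slc4a1 0.30) and, for Slc4a1, with 15 arrays as separate samples (0.27). Median scaling also gave 2861 higher and 15 lower genes in T against C, where the main setting gave 259 and 264. The scanner's processed signal, scaled to the 75th percentile, moved the median of all genes by -0.40 in T against C and by -0.30 in G against C. Alas2 turned sign in T against C under median scaling (0.85), and leaving out a mouse gave -0.27 to 0.0039. For G against C it gave -0.042 to 0.21. In G against T, Hba-a2 turned negative under median scaling (-0.16), the processed signal (-0.20), the authors' table (-0.0088) and slide 2 (-0.33), Hba-a1 turned positive with 15 arrays (0.033), slide 1 (0.66) and without the 3 dimmest arrays (0.26), and Hbb-b1 with slide 1 (0.35) and without those arrays (0.030). Leaving out a mouse gave -0.26 to 0.26 for Hba-a1, -0.17 to 0.28 for Hba-a2, -0.53 to 0.030 for Hbb-b1 and -1.20 to -0.39 for Hbb-b2 (main value -0.79). The cause of these changes was not tested.

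Over all genes, the main setting called 523 in T against C, 29 in G against T and 94 in G against C. In that order the counts were 2876, 8 and 0 with median scaling (6624 at an unadjusted p under 0.05 in G against C, limma), 57, 3 and 1 with the processed signal, 1949, 268 and 338 with 15 arrays as separate samples, 814, 75 and 176 with the slide as a term, 46, 7 and 1 on slide 1, 17, 4 and 6 on slide 2, 0, 5 and 5 with the methods' t-test after Benjamini-Hochberg (3827, 2297 and 2235 unadjusted), and 4, 14 and 3 without the 3 dimmest arrays, an alternative chosen after seeing the data. In G against T they were 13 without background correction and 63 with only detected probes. Leaving out a mouse gave 95 (T mouse 3) to 746 (T mouse 1) genes in T against C, 4 to 117 (without T mouse 3 and T mouse 1) in G against T, and 8 (C mouse 1) to 202 (C mouse 3) in G against C.

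The replicate numbers share only a number, as the correlations of the 10 same-numbered pairs ran from -0.24 to 0.20 and 2 were over 0.1. With the replicate number as a block the counts were 278, 6 and 50, Hba-a2 in G against T was -0.21, Hbb-b2 was -1.40 in G against T (adjusted p = 0.461, limma) and 0.57 in G against C, and no member passed. Slc4a1 is limited by a signal near background, and the number of C mice limits every comparison with C.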

Other observations

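The remaining genes named by the rule gave the following differences of T from C. Among transcription factors, Zfpm1, a partner of GATA1, differed by 0.36 (adjusted p = 0.133, limma), Lmo2 by 0.35 (0.132) and Nfe2 by -0.31 (0.325). Among platelet genes, Clec1b differed by 0.20 (adjusted p = 0.297, limma) and Treml1 by 0.17 (0.545). Elane, a granule protease of neutrophil precursors, differed by -0.02 (adjusted p = 0.954, limma) and the T cell gene Cd4 by 0.03 (0.880). Vsig4, a receptor of liver macrophages, read 7.90 in C, 8.43 in T and 8.37 in G, and differed by 0.53 (adjusted p = 0.199, limma). In sinusoidal endothelium, Fcgr2b differed by 0.21 (adjusted p = 0.447, limma) and Vwf by 0.19 (0.606). Egln3, an oxygen sensor, differed by -0.28 (adjusted p = 0.261, limma). Of the hepatocyte genes, Cyp3a11 read 12.78 in C, 11.07 in T and 12.95 in G (T against C -1.71, adjusted p = 0.104, limma), and Apoa1 differed by 0.55 (0.0657).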
